A study of Mus musculus with 4 samples.

Results

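The genes described here are 8 genes for transporters and an enzyme of glutamate and GABA uptake, exchange and recycling: Slc1a2, Slc1a3, Slc1a1, Slc7a11, Slc6a11, Glul, Slc38a3 and Slc38a1. They were chosen by symbol, with no measured value in the rule, and are 8 of the 46983 genes in the deposited tables. Nuclei came from the forebrain of male C57Black/6 mice aged 3 months, either sham control or day 1, day 3 or day 7 after permanent middle cerebral artery occlusion (MCAO), a stroke model with the artery coagulated and then transected. Each of the 4 groups held 1 library made from 3 pooled hemispheres, so no difference has a replicate check, no test was possible and no p-value was computed. The surgical protocol in the labels names intact cortex as control tissue, whereas the design text names forebrain hemispheres for every time point. The sham library held 334 nuclei of the class named below as striatal projection neuron-like, so its tissue was not cortex alone. All mice were of the same strain, age and sex, and no transgene is named.

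Glutamate released at excitatory synapses is not broken down outside cells but is taken up by sodium-coupled transporters, most of it into astrocytes. There, glutamine synthetase turns it into glutamine, which astrocytes export and neurons take back up to make glutamate and GABA again. The cystine/glutamate exchanger works the other way, releasing glutamate in return for cystine, which cells need to make the antioxidant glutathione. Uptake of glutamate is of long-standing interest in brain ischemia because glutamate left outside cells is toxic to neurons.

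The libraries held 28195551 unique molecular identifiers (UMIs, counted RNA molecules) in the sham library, 23285489 on day 1, 42963698 on day 3 and 25033355 on day 7, and the calling gave 2152, 1026, 3170 and 1592 nuclei in the same order. After 145 probable doublets were removed, 7795 nuclei remained, and 9 barcodes were shared between any of the libraries. The study's own nuclei counts by time point match these libraries only if the last pair of time points is exchanged. The labels were kept, so day 3 and day 7 below mean the libraries labelled so, and with the labels exchanged each value of the one would be that of the other. The nuclei fell into 30 clusters, from which 11 classes were named by fixed markers. A cluster of 180 nuclei, led by Ttr, heat-shock and mitochondrial genes, stayed unnamed because mitochondrial genes made up most of its leading genes. Choroid plexus markers were its best match and astrocyte markers its next. It held 22 nuclei in the sham library, 27 on day 1, 98 on day 3 and 33 on day 7. Slc1a2 stood there at 748, 1353, 2087 and 2499 CPM (defined below) and Gfap at 340, 200, 608 and 727 CPM. Class names carry "-like" because they rest on RNA alone. The endothelial-like class was 1 cluster of 140 nuclei with the mural gene Rgs5 among its leading genes and mural markers as its next match. No mural class was named, so mural nuclei may be part of it. The interneuron-like class was mixed. Of its 1233 nuclei, 793 (64.3%) formed 1 cluster whose leading genes, among them Baiap3, Rmst, Glra3 and Ebf2, are no interneuron markers, and nearly all of whose nuclei fell in a neuronal cluster of no named kind at a cluster resolution of 0.4. It held Gad2 at 183 CPM, Sst at 41.4 and Vip at 7.27, against 319, 230.4 and 116 CPM in the other 440 nuclei, so levels of Slc1a2, Slc1a3, Slc1a1, Slc6a11 and Slc38a1 in the class are given with and without it. The astrocyte-like class held 476 nuclei (142 in the sham library, 55 on day 1, 209 on day 3 and 70 on day 7). All 15 of its 15 markers, among them Aqp4 and Gja1, were more than 2-fold higher than in other nuclei. The same markers had named the class, so this is no separate check of the name. Its nuclei were deepest on day 1, with a median of 5340 UMIs against 2987.5 in the sham library, 2787 on day 3 and 3705 on day 7.

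Values are CPM, the UMIs of a gene summed over the nuclei of a class and library and scaled to the summed UMIs of that class. All intervals are exact, at the 95% level, and cover counting error only. Nuclei of a library are not replicates, and 1 nucleus can carry much of a value: in astrocyte-like nuclei the nucleus with the most Slc1a2 UMIs held 12.3% of them in the sham library, 11.1% on day 1, 2.91% on day 3 and 13.6% on day 7. Free RNA, which leaks from broken cells into every droplet, was estimated for each class from genes of other classes. It came to 28.4% of the astrocyte-like UMIs in the sham library, 45.8% on day 1, 19.2% on day 3 and 29.7% on day 7. The 9 neuronal genes behind that estimate were all detected in astrocyte-like nuclei of every library and summed to 2503, 3830, 1681 and 2633 CPM in that order, with 1 nucleus holding 22.9% of them on day 1 and 27.0% on day 7. A level at or below the part that free RNA would give is read here as background. Some levels, such as that of Slc1a2 in microglia-like nuclei on day 1, lay well below that part, so the estimate can be too high.

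Across the 11 classes the 8 genes split into several patterns. Slc1a2, Slc1a3 and Slc6a11 were highest in astrocyte-like nuclei in all 4 libraries with no overlap with the next class, and Glul had its highest mean there but overlapped with endothelial-like nuclei. Slc38a3 was about equally high in endothelial-like and astrocyte-like nuclei. Slc1a1 led in endothelial-like nuclei and oligodendrocyte precursor-like nuclei, Slc7a11 in fibroblast-like nuclei and Slc38a1 in ependymal-like nuclei. Thus 4 of the 8 genes had their highest mean level over the 4 libraries in the astrocyte-like class. The share of all genes with their highest mean there was not counted, so nothing about the 8 as a set is read from this.

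**Figure D1:**
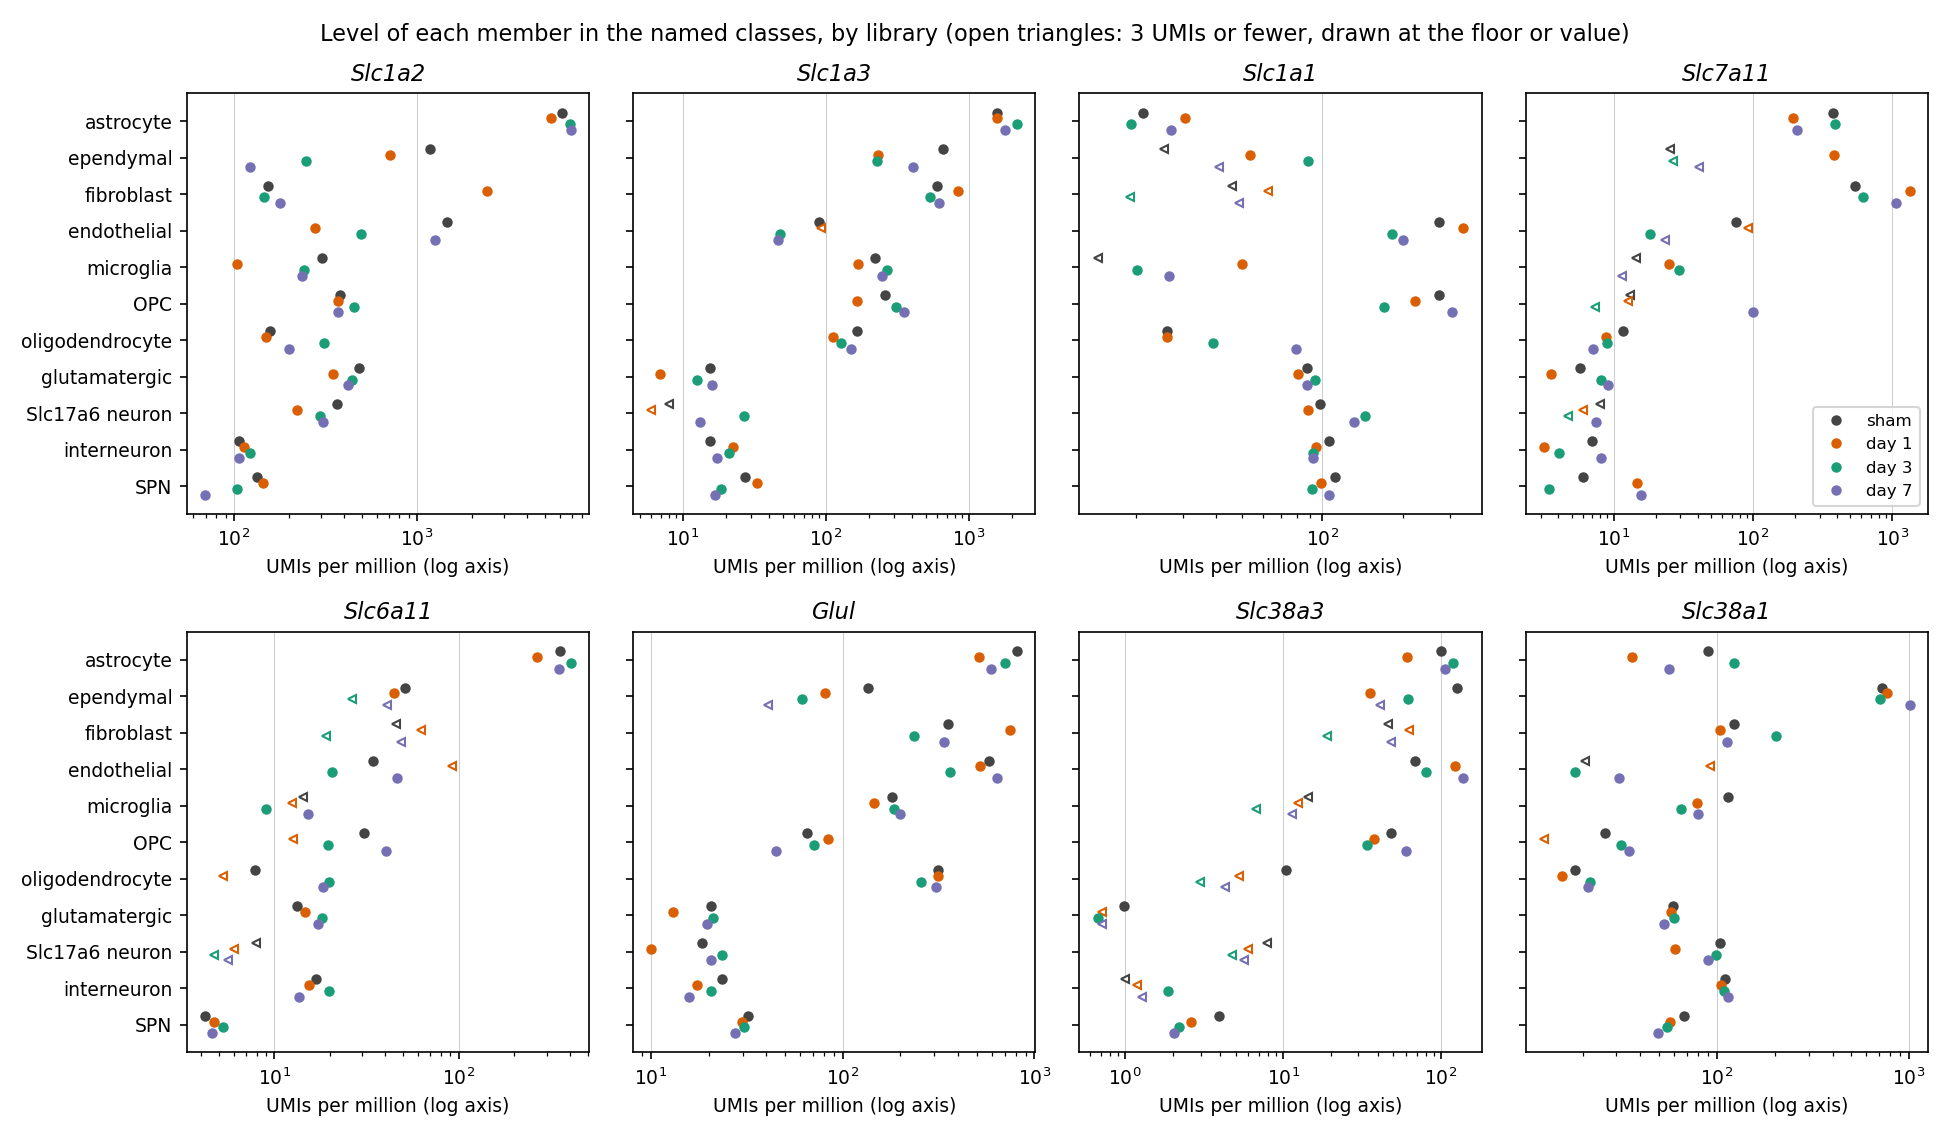
Level of each gene (horizontal log axis, CPM) in the 11 named classes (rows), with 1 point per library coloured by time point and open triangles where a class held 3 UMIs or fewer. Slc1a2 lies between 5399 and 6924 CPM in astrocyte-like nuclei, to the right of every other class, whereas Slc38a1 is highest in ependymal-like nuclei (704 to 1007 CPM).

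Slc1a2 (GLT-1, EAAT2), which carries most glutamate uptake in the forebrain, spans chr2:102658659-102790784 on the plus strand of GRCm38. In astrocyte-like nuclei its level was 6149 CPM in the sham library (5955 to 6348), 5399 on day 1 (5162 to 5645), 6877 on day 3 (6689 to 7069) and 6924 on day 7 (6681 to 7173). The part that free RNA would give was 167 to 302 CPM. The levels thus lay within a narrow band, lowest on day 1, and no library passed 1.5-fold of the sham library. With every nucleus thinned to 1000 UMIs, 93.7% of astrocyte-like nuclei held a Slc1a2 UMI in the sham library, 92.7% on day 1, 95.7% on day 3 and 95.7% on day 7. Unthinned, the share was 99.0% on day 3 and 100% in the other libraries. The median nucleus held 5, 5, 7 and 4 Slc1a2 UMIs among its 1000, so nearly every astrocyte-like nucleus contributed.

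The next classes lay far lower. In endothelial-like nuclei Slc1a2 stood at 1450 CPM in the sham library, 277 on day 1, 491 on day 3 and 1249 on day 7, and the 15 astrocyte markers in the same nuclei summed to 1512, 615, 710.5 and 1403 CPM. Both series were high in the sham library and on day 7, and the part of astrocyte RNA in this level was not tested. In fibroblast-like nuclei the day 1 level of 2414 CPM came to 54.3% from 1 of 12 nuclei, and the other libraries gave 146 to 178 CPM.

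Among neurons, Slc1a2 was highest in glutamatergic neuron-like nuclei, with 482 CPM in the sham library, 345 on day 1, 442 on day 3 and 421 on day 7, against a free RNA part of 59.3 to 93.0 CPM. Interneuron-like nuclei had 106, 113, 123 and 106 CPM in the same order, against a free RNA part of 73.1 to 99.7 CPM. Without their largest cluster they had 99.7, 152, 118 and 108 CPM, against a free RNA part of 81.9, 67.9, 121 and 53.0 CPM, so that the day 3 level lay below it. Striatal projection neuron-like nuclei had 133, 144, 104 and 69.5 CPM, of which the values of day 3 and day 7 lay below the free RNA part of 139 and 128 CPM. The glutamatergic level was 4.55-fold (4.05 to 5.13), 3.06-fold (2.69 to 3.48), 3.60-fold (3.25 to 4.01) and 3.97-fold (3.48 to 4.55) that of interneuron-like nuclei. It was 3.62-fold (3.27 to 4.02) that of striatal projection neuron-like nuclei in the sham library and 2.40-fold (2.11 to 2.74) on day 1, and no fold is given for the days below the free RNA part. Without the largest interneuron-like cluster the ratios were 4.83 (4.00 to 5.88) in the sham library, 2.28 (1.93 to 2.71) on day 1 and 3.89 (3.19 to 4.77) on day 7, lower on day 1 and within the intervals above in the other libraries. The 15 astrocyte markers, all detected in glutamatergic neuron-like nuclei, summed to 266 to 321 CPM there. Thinned to 1000 UMIs, 37.6% of glutamatergic neuron-like nuclei held a Slc1a2 UMI in the sham library, 27.0% on day 1, 33.0% on day 3 and 31.5% on day 7. Unthinned shares were 91.4%, 87.3%, 86.0% and 82.8%, at median depths of 10200.5, 15722, 8714 and 10347 UMIs. No background share is set beside these, and at such depths the free RNA part alone could give a UMI in part of the nuclei. The same transcript in astrocyte-like nuclei was 12.8-fold (sham control) to 16.4-fold (day 7) higher than in glutamatergic neuron-like nuclei.

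Slc1a3 (GLAST, EAAT1), the other astrocytic glutamate transporter and the main one in radial glia, spans chr15:8634124-8710764 on the minus strand. Astrocyte-like nuclei held 1573 CPM in the sham library (1475 to 1675), 1563 on day 1 (1437 to 1698), 2173 on day 3 (2068 to 2282) and 1772 on day 7 (1650 to 1901). The intervals of the sham library and day 1 overlapped, and day 3 lay above the intervals of the other libraries, at 1.38-fold of the sham library (1.28 to 1.50), which is short of the 1.5-fold used for a call. Thinned to 1000 UMIs, 73.9%, 70.9%, 86.1% and 78.6% of astrocyte-like nuclei held a UMI, and unthinned 96.5%, 94.5%, 97.1% and 100%. In glutamatergic neuron-like nuclei, which should lack the gene, the thinned shares were 1.77%, 1.27%, 0.668% and 1.15%.

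Outside astrocyte-like nuclei Slc1a3 was spread over other glial and meningeal classes. Fibroblast-like nuclei had 538 to 832 CPM, ependymal-like nuclei 229 to 660 CPM and oligodendrocyte precursor-like nuclei 164 to 351 CPM, and neighbours in this order overlapped. Microglia-like nuclei had 220 CPM in the sham library, 167 on day 1, 269 on day 3 and 247 on day 7, all above a free RNA part of 52.4 to 61.2 CPM, whereas their Slc1a2 level of 301, 104, 240.2 and 236 CPM lay near or below its free RNA part of 298, 347, 311 and 326 CPM. Oligodendrocyte-like nuclei had 164, 112, 128 and 149 CPM. Every neuronal class stayed at or below 32.8 CPM, whereas interneuron-like nuclei without their largest cluster had 17.5, 37.7, 31.3 and 29.7 CPM against 15.4, 22.4, 21.1 and 17.4 CPM for the whole class.

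Slc1a1 (EAAC1, EAAT3), the glutamate and cysteine transporter usually described in neurons, spans chr19:28835049-28913960 on the plus strand. Its highest levels were in endothelial-like nuclei, with 275 CPM in the sham library, 338 on day 1, 183 on day 3 and 200.5 on day 7, and in oligodendrocyte precursor-like nuclei, with 275, 222, 171 and 306 CPM. These classes overlapped each other and lay above every other class. The day 1 endothelial-like value rested on 6 nuclei. The neuronal classes followed together, with means of 116 CPM in Slc17a6 neuron-like, 102 CPM in striatal projection neuron-like, 96.1 CPM in interneuron-like and 87.6 CPM in glutamatergic neuron-like nuclei, and neighbours in this order overlapped. Without their largest cluster, interneuron-like nuclei had 111.5 to 124 CPM, above the 91.7 to 111.3 CPM of striatal projection neuron-like nuclei. Glutamatergic neuron-like nuclei held 87.7 CPM in the sham library, 81.0 on day 1, 94.1 on day 3 and 87.6 on day 7. Astrocyte-like nuclei had 21.1, 30.6, 19.1 and 27.1 CPM against a free RNA part of 25.4, 43.1, 16.3 and 27.8 CPM, below it in 3 libraries, and the day 3 interval of 10.4 to 32.0 CPM included it, so Slc1a1 was not detectable above background in them at this depth.

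Slc7a11 (xCT), the catalytic subunit of the cystine/glutamate exchanger, spans chr3:49892526-50443614 on the minus strand, and its 551 kb overlap 5 other annotated genes. In astrocyte-like nuclei it stood at 372 CPM in the sham library (325 to 424), 195 on day 1 (152 to 246), 389.6 on day 3 (346 to 438) and 206 on day 7 (166 to 253), with a free RNA part of 5.11 to 6.65 CPM. Sham control and day 3 formed a high pair and day 1 and day 7 a low pair, and the intervals of the pairs did not overlap. The share of astrocyte-like nuclei with a Slc7a11 UMI was less uneven. It was 50%, 52.7%, 50.7% and 45.7% unthinned, and 24.7%, 21.8%, 29.7% and 17.1% after thinning to 1000 UMIs, where the intervals of all 4 libraries overlapped. In oligodendrocyte-like nuclei, at a median depth of 2023, 3087.5, 1864 and 2389 UMIs, the thinned share was 1.25%, 0.625%, 0.230% and 0.784%. Astrocyte-like nuclei were 22.3-fold to 43.7-fold above oligodendrocyte-like nuclei in every library.

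The 250 bases before the RefSeq start of Slc7a11 are shown because they hold matches to the amino acid response element TGATGCAA, a sequence bound by stress-response factors of the ATF4 family. Each match is in capitals, and the sequence reads along the gene's own (minus) strand of GRCm38.p6, from chr3:50443614-50443863.
Slc7a11: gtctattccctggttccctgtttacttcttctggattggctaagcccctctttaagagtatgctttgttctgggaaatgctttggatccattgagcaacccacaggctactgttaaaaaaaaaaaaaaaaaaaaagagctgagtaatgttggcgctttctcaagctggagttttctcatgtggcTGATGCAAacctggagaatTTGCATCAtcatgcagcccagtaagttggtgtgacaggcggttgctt
The first match lies 66 to 59 bases before the start on the gene's strand, and the other 47 to 40 bases before it on the opposite strand. On either strand, TGATGCAA occurred in 260 of 32851 promoter windows (0.791%), and 2 windows (0.00609%) held it more than once. Of the 8 genes, 6 had a promoter entry, and the 2 without were Slc38a3 and Slc38a1. Searched for TGATGCAA and for the antioxidant response element core TGACNNNGC, on both strands, 2 of the 6 held a match.

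Slc7a11 was higher still in fibroblast-like nuclei, at 535 CPM in the sham library, 1332 on day 1, 620.3 on day 3 and 1067 on day 7. These sums came from few nuclei: 16%, 41.7%, 21.3% and 38.9% of the fibroblast-like nuclei held a UMI, and 1 nucleus held 27.3% (day 7) to 59.4% (day 1) of them. The ratio to astrocyte-like nuclei was 1.44 (0.978 to 2.06) in the sham library and 6.84 (4.80 to 9.74) on day 1. The 15 astrocyte markers summed to 3733, 4037, 2715 and 3022 CPM in fibroblast-like nuclei, and of these the water channel gene Aqp4 was at 15.3, 271, 6.33 and 0 CPM, highest on day 1. In other classes a lone nucleus could set the value. On day 7, 1 nucleus held 90% of the 20 UMIs of oligodendrocyte precursor-like nuclei, and on day 1, 1 of 7 ependymal-like nuclei held 62.8% of 43 UMIs.

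Slc6a11 (GAT3), the GABA transporter of astrocyte processes, spans chr6:114131241-114249952 on the plus strand. Astrocyte-like nuclei held 356 CPM in the sham library (310.3 to 406), 264 on day 1 (214 to 323), 406 on day 3 (361 to 455) and 350.4 on day 7 (297 to 410.1), against a free RNA part of 11.5 to 19.8 CPM. The day 1 interval overlapped that of the sham library and lay below that of day 3. The next class, endothelial-like nuclei, had 20.6 to 61.5 CPM, so the mean in astrocyte-like nuclei was 8.46-fold higher and the ranges did not overlap. Of all 8 genes this was the one with the widest gap between the highest class and the next. In neurons the level was 13.2 to 18.2 CPM in glutamatergic neuron-like and 13.6 to 19.8 CPM in interneuron-like nuclei, or 5.95 to 12.04 CPM without the largest cluster of the latter. Its promoter window is shown for its match to the antioxidant response element core TGACNNNGC, in capitals, on the opposite strand, 219 to 211 bases before the start, from chr6:114130991-114131240 (plus strand, GRCm38.p6, RefSeq).
Slc6a11: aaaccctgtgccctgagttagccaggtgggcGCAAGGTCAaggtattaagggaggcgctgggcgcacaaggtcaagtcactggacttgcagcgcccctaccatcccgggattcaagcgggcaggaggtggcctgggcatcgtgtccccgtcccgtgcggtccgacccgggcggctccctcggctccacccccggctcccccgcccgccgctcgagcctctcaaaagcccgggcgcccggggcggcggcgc
That core occurred in 10.2% of all promoter windows, so the match is a common one.

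Slc6a11 varied among astrocyte-like nuclei with the RNA of Gfap, the intermediate filament gene of fibrous and reactive astrocytes. Nuclei with a Gfap UMI had 198 CPM of Slc6a11 in the sham library, 237 on day 1, 323 on day 3 and 298 on day 7, and nuclei without had 473, 282, 536 and 413 CPM. The ratio was below 1 in all 4 libraries, at 0.419 (0.301 to 0.576), 0.839 (0.533 to 1.30), 0.602 (0.476 to 0.760) and 0.721 (0.518 to 1.00), and its interval was clear of 1 in the sham library and on day 3. Split instead by a UMI of Agt, angiotensinogen, a marker of astrocytes of subcortical regions, nuclei with Agt had 553, 437, 860.4 and 576 CPM of Slc6a11 and those without had 299, 215, 344 and 281 CPM. Here the ratio was 1.85 (1.38 to 2.46), 2.03 (1.30 to 3.14), 2.50 (1.90 to 3.26) and 2.05 (1.46 to 2.86), with every interval above 1. The nuclei with a Gfap UMI numbered 32, 23, 98 and 25 and were mostly deeper than those without, with median depths of 4970, 4443, 3421 and 9200 UMIs against 2827, 5364.5, 2340 and 3120, and the part of depth in the split was not tested.

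Glul differed in the other direction across the same split. With a Gfap UMI its level was 938 CPM in the sham library, 638 on day 1, 759 on day 3 and 699.5 on day 7, and without 719, 432, 605 and 468 CPM. The ratio of 1.30 (1.09 to 1.56), 1.48 (1.09 to 1.99), 1.25 (1.04 to 1.52) and 1.49 (1.15 to 1.94) was above 1 in every library. Slc1a2 was higher in nuclei with a Gfap UMI in the sham library (1.20), on day 1 (1.57) and on day 7 (1.67), and on day 3 the ratio of 1.03 had an interval that included 1 (0.977 to 1.10). After thinning to 1000 UMIs, the share of astrocyte-like nuclei with a Gfap UMI was 12.7% in the sham library, 29.1% on day 1, 26.8% on day 3 and 17.1% on day 7.

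**Figure D2:**
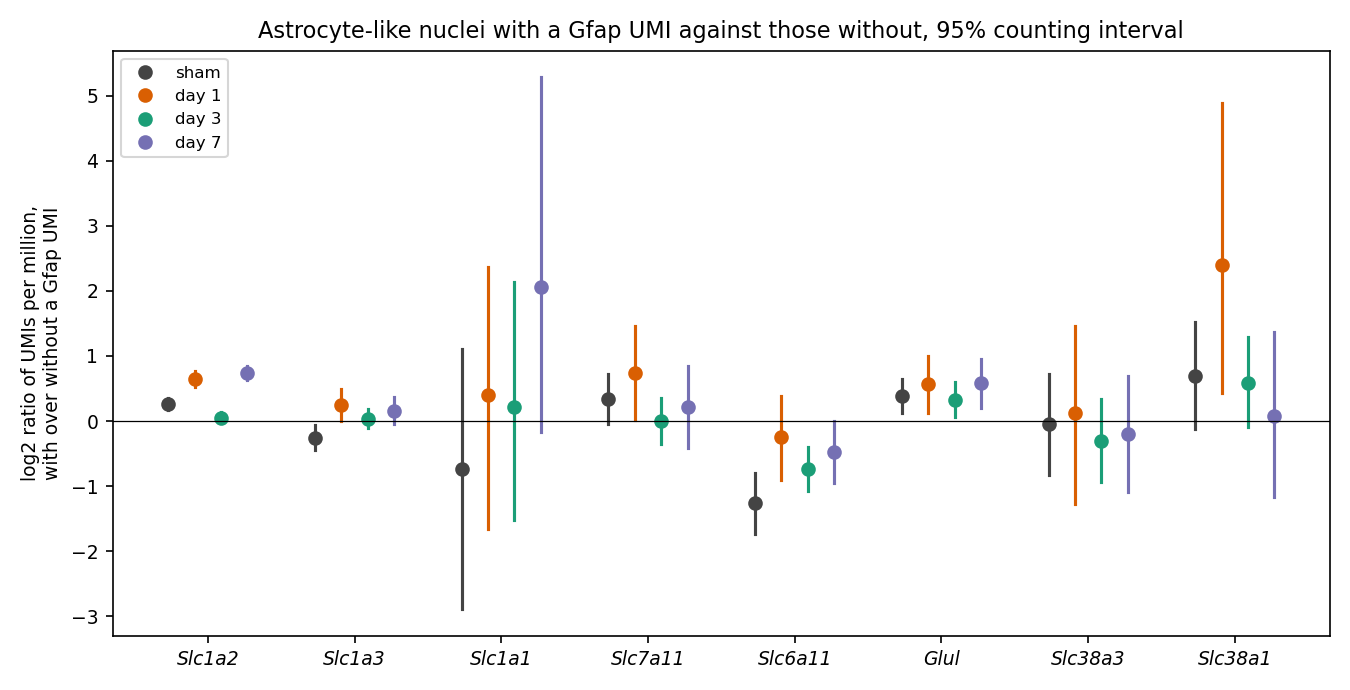
Log2 ratio of CPM in astrocyte-like nuclei with a Gfap UMI over those without (vertical axis) for each gene, with 1 point per library and bars for the 95% counting interval. Slc6a11 lies below 0 and Glul above 0 in all 4 libraries, and the wide bars of Slc1a1 and Slc38a1 reflect few UMIs.

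Glul, glutamine synthetase, spans chr1:153899944-153909723 on the plus strand. Its level in astrocyte-like nuclei was 813 CPM in the sham library (743 to 887), 512 on day 1 (441 to 591), 699 on day 3 (639.7 to 762) and 595 on day 7 (525 to 671), with a free RNA part of 44.5 to 99.1 CPM. Sham control was the highest and day 1 the lowest, and the intervals of these libraries did not overlap. Endothelial-like nuclei had 577, 523, 363 and 640 CPM, which overlapped the astrocyte-like range. Oligodendrocyte-like nuclei held 315 CPM in the sham library, 315 on day 1, 256 on day 3 and 308 on day 7, well above a free RNA part of 36.6 to 55.3 CPM and 3.62-fold to 6.83-fold the level of oligodendrocyte precursor-like nuclei. Astrocyte-like nuclei exceeded oligodendrocyte-like nuclei by 2.58-fold (2.21 to 3.02) in the sham library, 1.63-fold (1.32 to 2.01) on day 1, 2.73-fold (2.35 to 3.18) on day 3 and 1.93-fold (1.61 to 2.32) on day 7, so the gap was smallest on day 1. In neuronal classes Glul was at 10.0 to 31.9 CPM, and in glutamatergic neuron-like nuclei it did not exceed the free RNA part of 19.4 to 24.9 CPM in any library.

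Slc38a3 (SNAT3, SN1), which exports glutamine from astrocytes, spans chr9:107650634-107669530 on the minus strand. Astrocyte-like nuclei had 101 CPM in the sham library (77.2 to 129), 61.2 on day 1 (38.4 to 92.7), 119.9 on day 3 (96.2 to 148) and 106 on day 7 (78.1 to 141), from 22 to 88 UMIs, and the free RNA part was 4.73 to 6.98 CPM. The day 1 level was 0.607 of the sham library (0.356 to 1.002), past 1.5-fold but with an interval that reached 1. Endothelial-like nuclei had 68.7, 123, 80.0 and 139 CPM. Glutamatergic neuron-like nuclei stayed at or below 0.985 CPM in every library, and oligodendrocyte-like nuclei at or below 10.4 CPM.

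Slc38a1 (SNAT1), a glutamine importer known from neurons, spans chr15:96571418-96642913 on the minus strand. It was highest in the 49 ependymal-like nuclei, at 720 CPM in the sham library, 768 on day 1, 704 on day 3 and 1007 on day 7, and 1 nucleus held 17.5% to 62.2% of these UMIs. All ependymal-like nuclei of the sham library, day 1 and day 7 and 85.0% of those of day 3 held a UMI, and the range lay 5.90-fold above the next class in the means, without overlap. Interneuron-like nuclei had 109.6 CPM in the sham library, 105 on day 1, 109 on day 3 and 114 on day 7, and glutamatergic neuron-like nuclei 59.1, 57.5, 59.9 and 53.2 CPM. The ratio between them was 1.85 (1.58 to 2.17), 1.83 (1.53 to 2.18), 1.82 (1.58 to 2.10) and 2.14 (1.78 to 2.56), nearly the same in every library. Without the largest interneuron-like cluster the levels were 112, 121, 114 and 121 CPM and the ratios 1.89, 2.10, 1.90 and 2.27, each within the interval for the whole class. Astrocyte-like nuclei had 89.4, 36.2, 123 and 56.5 CPM, against a free RNA part of 31.1, 44.7, 19.5 and 32.5 CPM, so on day 1 the level was not above background.

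The comparison of each post-injury library with sham control asked whether the uptake and recycling genes differed after occlusion. In astrocyte-like nuclei on day 1, Slc7a11 fell to 0.523 of the sham library (0.394 to 0.687), Glul to 0.630 (0.529 to 0.747) and Slc38a1 to 0.405 (0.203 to 0.750), where Slc38a1 came down to its free RNA part. On day 3 no member passed 1.5-fold as reported, though Slc38a1, at 1.37 (0.970 to 1.955), passed under 3 alternatives, and on day 7 Slc7a11 alone fell, to 0.553 (0.429 to 0.708). A call needed at least 20 UMIs over both libraries, a 1.5-fold difference and a counting interval clear of 1. The transporters Slc1a2 and Slc1a3 passed on no day.

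By that rule 0 members were higher and 3 lower on day 1, when 4.42% of the 7850 genes tested were higher and 6.39% lower. On day 3, 0 members were higher and 0 lower, against 3.78% and 6.93% of 9116 genes. On day 7, 0 were higher and 1 was lower, against 4.14% and 5.91% of 8190 genes. The median log2 ratio of the 8 members was -0.55 on day 1, 0.18 on day 3 and 0.03 on day 7, against -0.10, -0.04 and -0.08 over all genes tested. On day 1, 7 of the 8 lay below sham control, and on day 3, 6 of the 8 lay above it. All 3 comparisons share the sham control library.

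**Figure D3:**
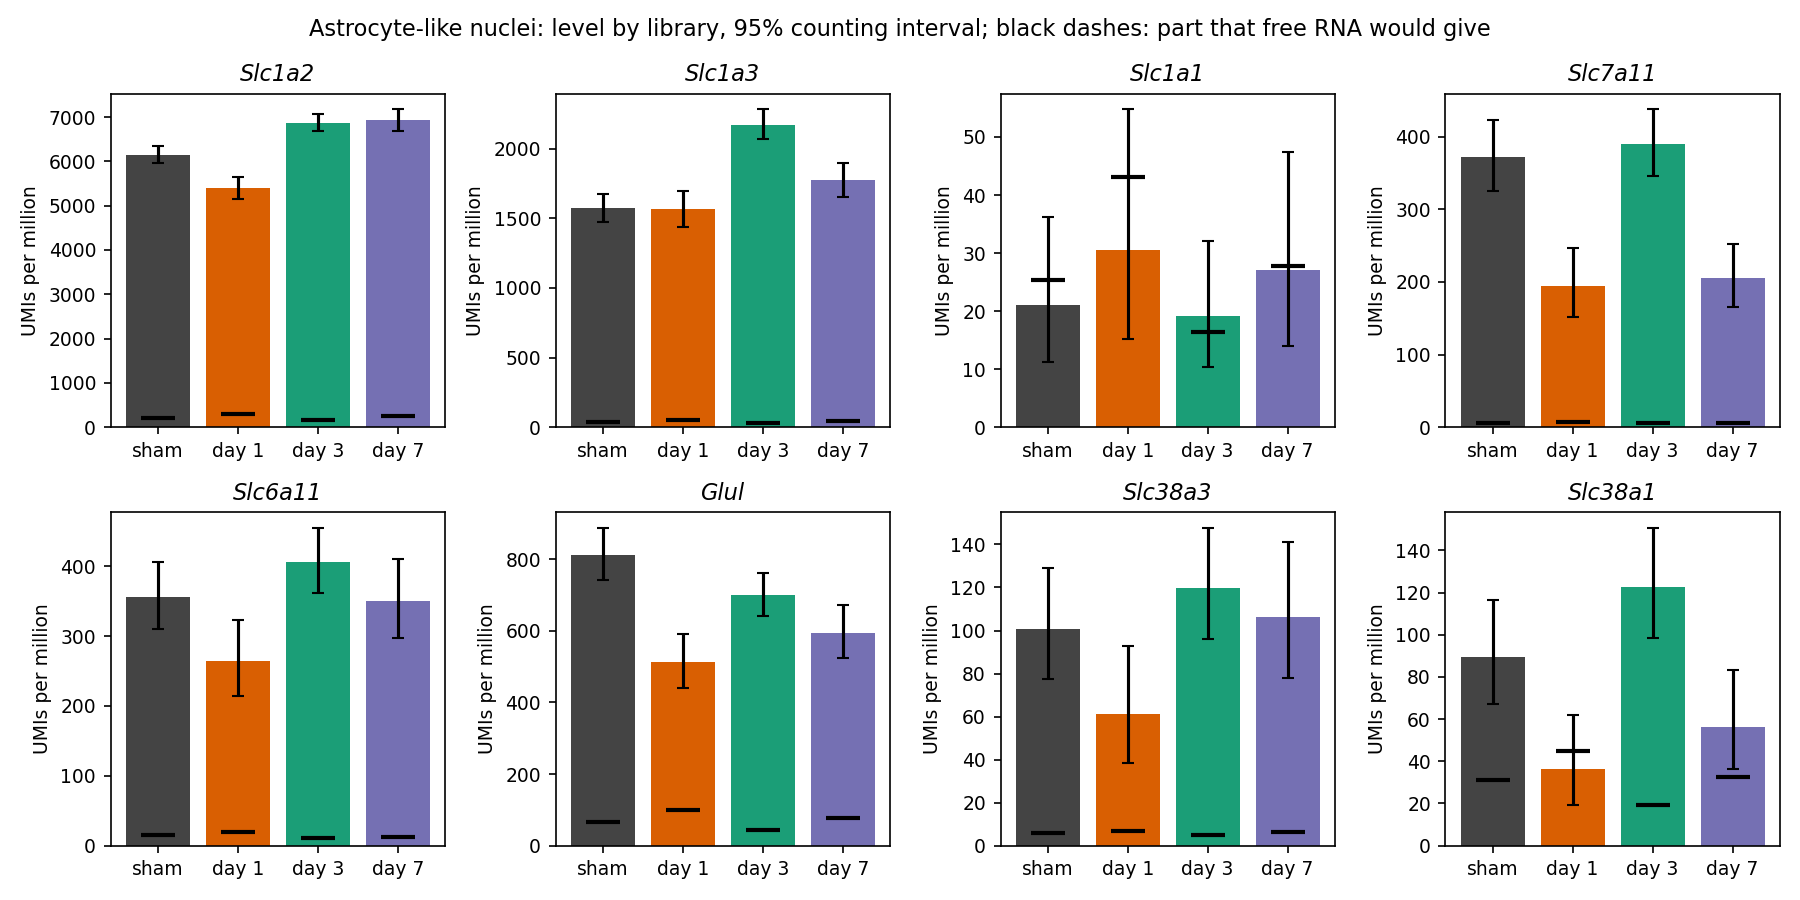
Level of each gene in astrocyte-like nuclei (vertical axis, CPM, from 0) in the 4 libraries, with bars for the 95% counting interval and black dashes for the part that free RNA would give. Slc7a11 is low on day 1 (195 CPM) and day 7 (206 CPM), Glul is lowest on day 1 (512 CPM), and the Slc1a1 bars stand at the level of the dashes.

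The day 1 calls depended on how nuclei were weighted and grouped, and Slc7a11, Glul and Slc38a1 were called under 8, 8 and 7 of 12 alternatives. These alternatives are not independent. A cluster resolution of 1.2 left the class at the same 476 nuclei, and a resolution of 0.4 gave nearly the same class as joining the unnamed nuclei. With the mean over nuclei, none of the 3 passed. With free RNA subtracted, none of the 3 passed either, the log2 ratio of Slc7a11 being -0.56 and that of Glul -0.45, against -0.93 and -0.67 as reported, and Slc38a1 had no UMIs left above the free RNA part. With every nucleus thinned to the same depth, Slc7a11 was at -0.06 and Slc38a1 at -0.05, and Glul at -0.73 still passed. Without the deepest nucleus of each library, Slc7a11 stood at -0.80 and Glul, no longer called, at -0.49. Merged without integration, Slc7a11 was at -0.51 and not called. Under TMM scaling Glul was at -0.58 and not called, and Slc38a1 was at -0.42 and not called at a cluster resolution of 0.4 or with unnamed nuclei joined to the class. Slc38a3 on day 1, not called at -0.72 as reported, was called lower under 7 of the 12, with log2 ratios down to -1.16 at a cluster resolution of 0.4 and with unnamed nuclei joined, and was at 0.20 after thinning. On day 3 Slc38a1, at 0.46 as reported, was called higher at 1.35 after thinning, 0.66 without the deepest nucleus and 0.65 with free RNA subtracted. The share of free RNA was highest on day 1, and the day 1 values with it subtracted are those above. The summed astrocyte markers were lowest on day 1 (5177 CPM, against 6156 in the sham library, 7576 on day 3 and 5751 on day 7), and their part in the day 1 values was not tested. On day 7 Slc7a11 ranged from -0.91 to -0.46 over the alternatives, against -0.86 as reported, and was called under 10 of 12, the exceptions being the mean over nuclei and thinning to 1000 UMIs.

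**Figure D4:**
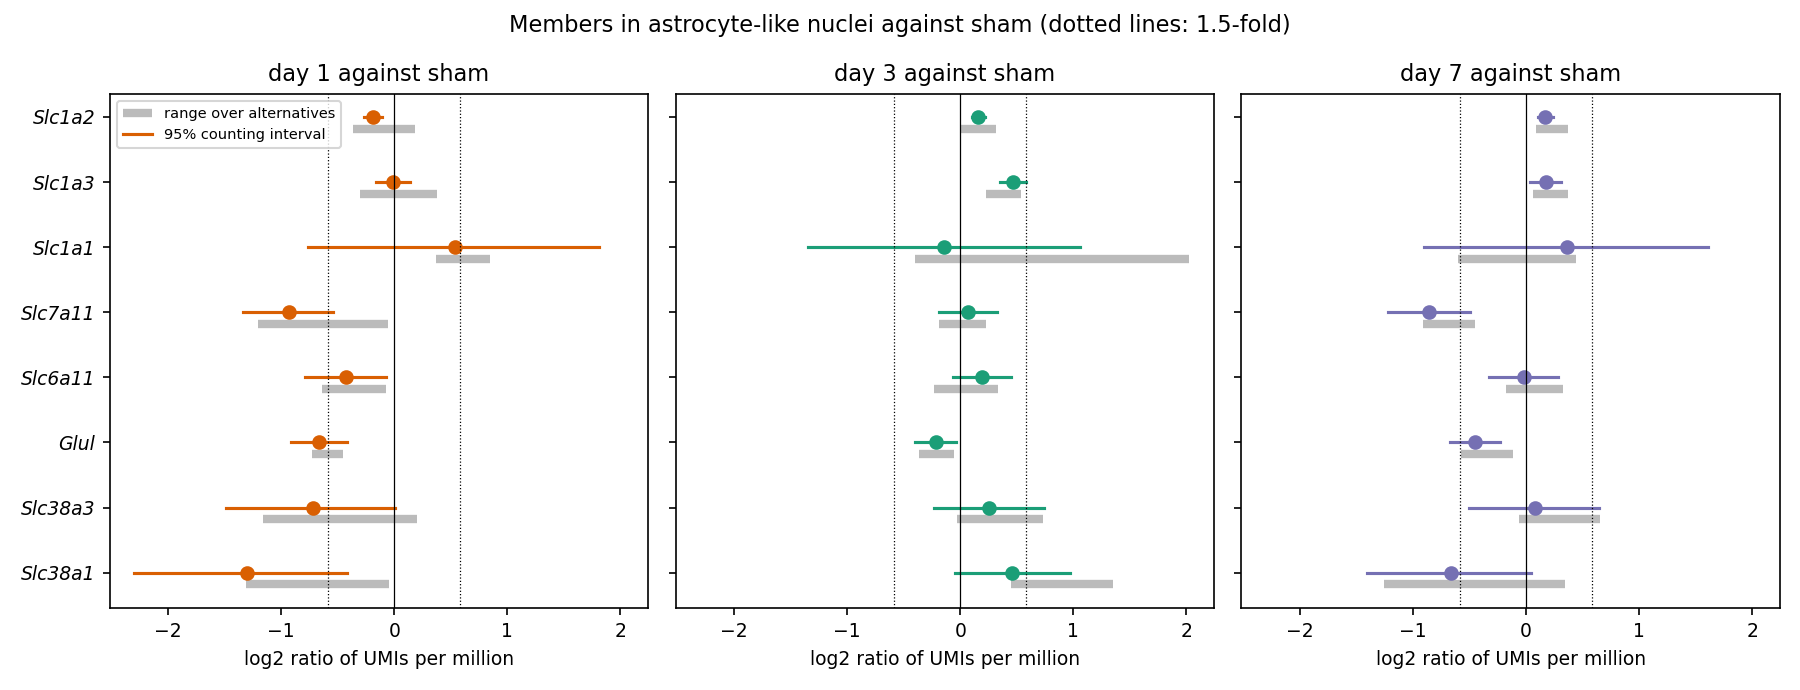
Log2 ratio of CPM to sham control in astrocyte-like nuclei (horizontal axis) for each gene, in a panel per post-injury library, with points and thin bars for the value and its 95% counting interval, thick grey bars for the range over 12 alternative ways of processing, and dotted lines at 1.5-fold. Slc7a11 on day 1 runs from -1.21 to -0.06 over the alternatives, whereas Slc1a2 stays inside the dotted lines on every day.

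In oligodendrocyte-like nuclei no member passed on day 1, when 4.84% of the genes tested were higher and 5.09% lower. On day 3, 1 of 6 members tested was higher and 0 were lower, against 4.99% and 3.12% of all genes. This was Slc1a2, at 157.5 CPM in the sham library, 150.3 on day 1, 309 on day 3 and 199 on day 7, with a day 3 ratio of 1.964 (1.59 to 2.44). The free RNA part was 127, 137, 207 and 125 CPM, and the 15 astrocyte markers in the same nuclei summed to 243, 178, 382 and 262 CPM, both highest on day 3. With free RNA subtracted the log2 ratio was 1.86, against 0.97 as reported, and still called. Under the other alternatives it ran from 0.79 to 1.15, and the part of the astrocyte markers in the rise was not tested. On day 7, 1 of 5 members was higher and 0 were lower, against 3.37% and 5.35% of all genes. This was Slc1a1, at 26.0 CPM in the sham library, 26.2 on day 1, 38.7 on day 3 and 79.4 on day 7, a ratio of 3.05 (1.80 to 5.37), with 33.9% of the 56 day 7 UMIs in 1 nucleus. The 8 precursor markers in oligodendrocyte-like nuclei summed to 292, 122, 362 and 780 CPM, highest on day 7 too, and their part was not tested. The log2 ratio of Slc1a1 was 1.15 to 2.68 over the alternatives, and the call was lost after thinning to 1000 UMIs, where the ratio was 1.47 against 1.61 as reported. Glul had ratios of 0.998 on day 1, 0.812 on day 3 and 0.977 on day 7 and passed on no day.

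In glutamatergic neuron-like nuclei 7 members were tested on each day. On day 1, 0 were higher and 2 lower, when 5.98% of genes were higher and 2.97% lower. The 2 were Slc1a3, at 15.4 CPM in the sham library and 6.89 on day 1, and Glul, at 20.5 and 13.1 CPM. On day 1 both were below their free RNA parts of 9.62 and 19.4 CPM. In the sham library Slc1a3 was above its free RNA part of 11.5 CPM and Glul below its 21.4 CPM, and with free RNA subtracted neither was called. Neither was called after thinning to 1000 UMIs or merged without integration, nor Slc1a3 with the mean over nuclei. Slc1a3 was called under 8 and Glul under 9 of 12 alternatives. Slc1a2 on day 1 was 0.717 of the sham library (0.671 to 0.765), clear of 1 but short of 1.5-fold. The class holds a cluster of 112 nuclei with the most Prox1, of which 4 were in the sham library, 18 on day 1, 46 on day 3 and 44 on day 7, with Slc1a2 at 149 CPM on day 1, and without it the log2 ratio was -0.42 against -0.48. Slc1a1 was at 0.924 and Slc38a1 at 0.972. On day 3, 0 members passed in either direction (2.42% of genes higher, 3.44% lower), and on day 7 again 0 (4.56% higher, 4.25% lower).

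In the other 8 named classes 25 calls were made over the 3 days. In endothelial-like nuclei on day 3, 0 of 5 members tested were higher and 3 lower, when 7.55% of genes were higher and 5.33% lower. Slc1a2 was at 0.339 of the sham library (0.279 to 0.412), Glul at 0.629 (0.480 to 0.830) and Slc1a1 at 0.665 (0.449 to 0.998), and the free RNA share of the class was 26.5% on day 3 against 10.5% in the sham library. The call of Slc1a1 held under 5 of 11 alternatives and not with free RNA subtracted, that of Glul under 8 and that of Slc1a2 under 11. On day 1, with 6 nuclei, 1 of 3 was lower (6.5% of genes lower, 8.42% higher), again Slc1a2, from 9 UMIs, and on day 7 none of 4 passed (4.67% higher, 5.6% lower). In oligodendrocyte precursor-like nuclei 1 member passed on each day. Slc1a3 was lower on day 1 at 0.636 (0.413 to 0.969; 3.92% of genes lower, 5.63% higher), and Slc1a1 was lower on day 3 at 0.620 (0.435 to 0.886; 4.1% lower, 5.89% higher). Slc7a11 was higher on day 7, from the single nucleus with 90% of its UMIs named above (3.47% higher, 4.03% lower). In Slc17a6 neuron-like nuclei 2 of 3 members were lower on day 1, when 5.18% of genes were lower and 4.06% higher. These were Slc1a2, at 363 CPM in the sham library and 221 on day 1 (0.609, 0.470 to 0.789), and Slc38a1, at 103 and 60.3 CPM (0.584, 0.350 to 0.964), and none of the 4 and 3 members tested passed on day 3 (3.28% higher, 4.28% lower) and day 7 (3.43% and 4.87%).

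In fibroblast-like nuclei 3 of 4 members were higher on day 1, when 12% of genes were higher and 10.9% lower, and the day 1 sum came from 12 nuclei. Slc1a2 was at 15.8-fold of the sham library (8.28 to 33.8), Slc7a11 at 2.49-fold (1.62 to 3.87) and Glul at 2.13-fold (1.23 to 3.76), with 54.3%, 59.4% and 47.2% of the day 1 UMIs in 1 nucleus. On day 7 Slc7a11 alone of 4 was higher, at 1.99-fold (1.30 to 3.09; 11.2% higher, 7.05% lower), and on day 3 none of 5 passed (8.21% higher, 6.01% lower). The log2 ratio of Slc7a11 on day 1 turned from 1.31 to -0.12 at a cluster resolution of 1.2, where the day 7 call was lost, and that of day 7 from 0.99 to -0.33 with nuclei above 2000 UMIs. In the 6 to 20 ependymal-like nuclei of each library, Slc1a2 and Slc1a3 were lower on all 3 days. Slc1a2 was at 1177 CPM in the sham library, where 1 of 16 nuclei held 67.6% of its UMIs, and at 714, 247 and 122 CPM after injury, and Slc1a3 was at 660, 232, 229 and 408 CPM. None of these Slc1a2 and Slc1a3 calls held after thinning to 1000 UMIs, where the log2 ratio of Slc1a3 on day 7 turned from -0.69 to 1.00. With the mean over nuclei, Slc1a2 on day 1 and Slc1a3 on day 3 and day 7 were not called. Genes lower in this class made up 7.0%, 5.06% and 5.74% on the 3 days, and genes higher 9.84%, 6.09% and 10.2%. Slc7a11 was higher on day 1, at 15.1-fold (4.84 to 76.1) from 3 UMIs in the sham library and 43 on day 1, most of them in 1 nucleus.

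In striatal projection neuron-like nuclei 1 of 7 members was higher on day 1 (5.29% of genes higher, 2.13% lower), none of 8 passed on day 3 (2.34% higher, 3.37% lower), and 1 of 7 was higher and 2 lower on day 7 (2.71% higher, 4.04% lower). The higher one was Slc7a11 on both days, at 6.02 CPM in the sham library, 14.6 on day 1 and 15.7 on day 7, with 67.9% and 71.0% of the later UMIs in 1 nucleus. The log2 ratio of day 1 turned from 1.28 to -1.84 when merged without integration. The lower ones were Slc1a2, at 69.5 CPM, and Slc1a3, at 16.7 CPM, both below their day 7 free RNA parts of 128 and 21.7 CPM. The log2 ratio of Slc1a3 turned from -0.71 to 0.16 when merged without integration and 0.28 after thinning to 1000 UMIs. Slc1a2 was the 1 member of 4 lower in microglia-like nuclei on day 1, also below its free RNA part (7.84% of genes lower, 8.15% higher), and none passed there on day 3 (6.27% higher, 4.81% lower) and day 7 (5.56% and 4.65%). In interneuron-like nuclei 7 members were tested on each day and none passed, when 2.51%, 1.39% and 2.25% of genes were higher on the 3 days and 2.59%, 3.36% and 4.91% lower. Without the largest cluster, 2 of 5 members were higher on day 1 (3.61% of genes higher, 2.89% lower), 1 of 6 on day 3 (2.33% higher, 3.5% lower) and 0 of 5 on day 7 (2.57% higher, 5.07% lower), and none was lower. Slc1a3 was at 2.15-fold on day 1 (1.22 to 3.91) and 1.79-fold on day 3 (1.02 to 3.24), from 38 and 39 UMIs against 20 in the sham library, with 44.7% of the day 1 UMIs in 1 of 63 nuclei. Its free RNA part was put at 14.4, 11.0 and 23.8 CPM in the sham, day 1 and day 3 libraries. Slc1a2 was at 1.52-fold on day 1, with a lower bound of 1.19 and 28.8% of the UMIs in 1 nucleus. Of the 25 calls in these 8 whole classes, 2 were made under every alternative way of processing, Slc1a2 in endothelial-like and Slc1a1 in oligodendrocyte precursor-like nuclei, both lower on day 3. In the unnamed nuclei 1 of 5 members tested was higher on day 1 (18.9% of genes higher, 13.7% lower). On day 3, 4 of 8 were higher there (13.7% higher, 12.5% lower), and on day 7, 3 of 4 (14.3% higher, 15.0% lower). None was lower, and the part of the mix of cells in these nuclei was not tested.

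Of the fixed list of 25 other genes of glutamate, glutamine, GABA and glutathione metabolism, 16 could be tested in astrocyte-like nuclei on each day. On day 1, 1 was higher and 0 were lower, against 4.42% and 6.39% of all genes. This was Slc38a2, a glutamine transporter induced by amino acid shortage in cultured cells, at 89.4 CPM in the sham library and 159 on day 1 (ratio 1.77, 1.20 to 2.62). On day 3, 0 were higher and 3 lower, against 3.78% and 6.93%. These were Slc38a2 at 57.2 CPM (0.640, 0.418 to 0.974), Gclc, the catalytic subunit of the enzyme that starts glutathione synthesis, at 46.3 CPM against 78.0 in the sham library (0.594, 0.371 to 0.941), and Gss, glutathione synthetase, at 6.81 against 30.9 CPM (0.221, 0.0644 to 0.611) from 5 and 19 UMIs. On day 7, 0 were higher and 1 lower, against 4.14% and 5.91%, again Gclc, at 40.7 CPM (0.522, 0.286 to 0.913). The list's median log2 ratio was -0.01, -0.02 and -0.10 on the 3 days, against -0.10, -0.04 and -0.08 over all genes tested.

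The genes whose levels followed each member most closely over the 11 classes were found among 8648 genes by Pearson's r of log2 mean levels, a description over classes that share libraries. For Slc1a3 they were Pxmp2 (0.960) and Slc15a2 (0.942), for Slc6a11 Cldn10 (0.968), a gene of the astrocyte marker list, and Pou3f2 (0.914), and for Slc1a2 Dhrs1 (0.914) and Cpe (0.902). For Slc7a11 they were Scara3 (0.986) and Fzd2 (0.968), and for Glul Prdx1 (0.972), a peroxide-reducing enzyme, and Tsc22d3 (0.958), a glucocorticoid-induced gene. Slc38a3 was nearest to Rgcc (0.936) and Plscr4 (0.935), Slc38a1 to Dalrd3 (0.957) and Ccdc81 (0.942), and Slc1a1 to Ptprr (0.859) and Mcf2l (0.833). Slc1a1 thus had the loosest nearest neighbour. Among the members themselves the highest correlation was 0.861, between Slc1a3 and Slc7a11, and the lowest -0.659, between Slc1a1 and Slc7a11.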

How the data were processed

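Per the labels and methods, the authors mapped droplet reads to GRCm38 with STAR 2.7.3a (exonic and intronic reads, GENCODE vM8) and deposited raw UMI counts per gene and barcode, unfiltered. Counting strand is not given in the sources used here, so members' reads cannot be told apart from those of overlapping genes. The study used emptyDrops, SoupX and Seurat integration. Members and lists were chosen with earlier results of these data known.

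Here nuclei were called per library by a re-implemented emptyDrops test (ambient barcodes up to 1000 UMIs, false discovery rate under 0.001, 10000 draws). Doublets were removed with Scrublet (scanpy 1.11.5) at 0.8% per 1000 nuclei. Nuclei were clustered with Seurat 5.3.0 (SCTransform, anchor integration, 30 components, resolution 0.8) without members and pathway genes among the features. The class markers were not left out of the features. Clusters were named from fixed markers, and the rule for neurons of no named kind (6 clusters) was set with the clusters in view. Class sums were given as CPM with exact Poisson intervals, ratios with exact conditional binomial intervals, shares with Clopper-Pearson intervals. Sums of 3 UMIs or fewer in both libraries gave no ratio. The call rule was tested on simulated data. The edgeR 4.0.16 TMM scaling was an alternative. All 8 members were named in each class of at least 30 nuclei, pathway genes where called in astrocyte-like nuclei, and the 2 genes nearest each member. Values of single genes among the markers and pathway genes are in part not reported here. Positions are those of GENCODE vM21 on GRCm38, promoters those of RefSeq.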

Additional observations from a re-analysis of the deposited data

How the results depend on the processing

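No paired analysis was possible because each group held 1 library. Leaving out a replicate was not possible for the same reason. Of the alternatives, those without the deepest nucleus, with unnamed nuclei joined, without the cluster with most Prox1, without the largest interneuron-like cluster and with the Agt split were chosen after seeing the data. The number of members lower at day 1 in astrocyte-like nuclei, 3 as reported, was 1 with the mean over nuclei (Slc38a3), 0 with free RNA subtracted, 1 with nuclei thinned to 1000 UMIs (Glul) and 1 with a fold of 2 (Slc38a1). The number lower at day 7, 1 as reported, was 0 with the mean over nuclei, 2 with free RNA subtracted (Slc7a11 and Slc38a1), 0 after thinning and 0 with a fold of 2. The number higher at day 3, 0 as reported, was 1 (Slc38a1) with free RNA subtracted, after thinning and without the deepest nucleus. The other alternatives, among them TMM scaling, totals without mitochondrial genes, other cluster resolutions and merging without integration, left these counts within 1.5 times, as they did the number of members highest in astrocyte-like nuclei (4). The genes behind a count changed, however: on day 1 Slc7a11 was lost when merged without integration, Slc38a1 at resolution 0.4 and with unnamed nuclei joined, and Glul under TMM scaling and without the deepest nucleus, while Slc38a3 joined under 7 of 12 alternatives, as many as called Slc38a1, and Slc6a11 at resolution 0.4 and with unnamed nuclei joined. Of the log2 ratios recomputed in astrocyte-like nuclei, 239 stayed within the counting interval of the reported value, 43 moved outside it and 0 turned from a called value to the opposite sign. In oligodendrocyte-like nuclei 242 stayed and 6 moved, and in glutamatergic neuron-like nuclei 259 stayed and 16 moved. In the other 8 named classes 1518 stayed, 94 moved and 6 called values turned to the opposite sign. These were Slc7a11 in fibroblast-like nuclei on day 7 with nuclei above 2000 UMIs (-0.33) and on day 1 at resolution 1.2 (-0.12), Slc1a3 on day 7 after thinning in ependymal-like (1.00) and striatal projection neuron-like nuclei (0.28), and, merged without integration, Slc7a11 on day 1 (-1.84) and Slc1a3 on day 7 (0.16) in striatal projection neuron-like nuclei. Apart from those named, the cause of the moves was not tested. Depth limited Slc1a1, Slc38a3 and Slc38a1 in astrocyte-like nuclei, which rested on 11 to 14, 22 to 88 and 13 to 90 UMIs.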
